A study of Mus musculus with 7 samples.

Results

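The 7 genes examined here encode the core of the major histocompatibility complex (MHC) class II pathway: the class II chains H2-Aa, H2-Ab1 and H2-Eb1, the peptide-exchange factor chains H2-DMa and H2-DMb1, the invariant chain Cd74 and the transactivator Ciita. They were taken by gene symbol from a table of 55401 Ensembl gene identifiers, and all 7 were present and were among the 19199 genes tested. The libraries were made from microglia of the dorsal hippocampus of adult male C57BL/6 mice aged 6 to 8 weeks. The dorsal dentate gyrus of every mouse was injected with AAV-RAM-Cre, a virus in which the activity-dependent RAM promoter drives Cre recombinase. In the EYFP group (4 libraries) it was combined with AAV-Dio-EYFP, a Cre-dependent fluorescent reporter, and in the ATG7 group (3 libraries) with AAV-Dio-Atg7-Flag, which adds a tagged copy of the autophagy gene Atg7 in Cre-positive cells. The RNA came from another fraction, the cells enriched with CD11b beads. The labels do not say whether a library was 1 animal or a pool, so p-values measure the spread between these libraries, which may be technical.

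MHC class II molecules are pairs of an alpha and a beta chain that carry peptides from endocytosed proteins to the cell surface, where CD4+ T cells read them. New chains are assembled in the endoplasmic reticulum on the invariant chain, which blocks the groove and directs the complex to endosomes. Proteases there trim the invariant chain to a short remnant, and the DM heterodimer exchanges that remnant for peptide. Transcription of these genes depends on CIITA, a coactivator that does not bind DNA itself but docks on the RFX complex at the X box and on NF-Y at the Y box of their promoters. Interferon-gamma, acting in part through IRF1, is the best known inducer of CIITA. Resting microglia hold little class II, and the genes are a common marker of microglial activation.

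Promoter sequences from RefSeq (GRCm38.p6) are shown because the X and Y boxes are where CIITA acts and because several of these genes varied together. Each window runs from 250 bases before to 50 bases after an annotated start and is written 5′ to 3′ on the gene's strand. Windows of 4 of the 7 genes (H2-Aa, H2-Eb1, H2-DMa and H2-DMb1) were examined. Capitals mark matches on either strand to the X1 box core TAGCAAC, to a looser X1 box (after 2 free bases: G, any base, AAC, any base, G, any base, TG), or to ATTGG, the CCAAT sequence of the Y box read on the other strand. The windows are chr17:34287774-34288073 (minus strand) for H2-Aa, chr17:34305617-34305916 (plus) for H2-Eb1, chr17:34152941-34153240 (plus) for H2-DMb1 and chr17:34122582-34122881 (plus) for the first of the H2-DMa starts.
H2-Aa: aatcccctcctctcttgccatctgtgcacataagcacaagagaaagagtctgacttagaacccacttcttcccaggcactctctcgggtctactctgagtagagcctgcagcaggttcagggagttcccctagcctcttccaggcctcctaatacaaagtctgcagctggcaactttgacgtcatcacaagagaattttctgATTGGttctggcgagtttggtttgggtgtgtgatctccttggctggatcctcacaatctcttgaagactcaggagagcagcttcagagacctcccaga
H2-Eb1: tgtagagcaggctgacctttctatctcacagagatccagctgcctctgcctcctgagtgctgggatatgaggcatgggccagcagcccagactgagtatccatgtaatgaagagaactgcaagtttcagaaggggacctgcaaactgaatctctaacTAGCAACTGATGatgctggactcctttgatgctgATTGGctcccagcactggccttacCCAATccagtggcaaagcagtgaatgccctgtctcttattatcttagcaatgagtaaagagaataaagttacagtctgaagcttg
H2-DMb1: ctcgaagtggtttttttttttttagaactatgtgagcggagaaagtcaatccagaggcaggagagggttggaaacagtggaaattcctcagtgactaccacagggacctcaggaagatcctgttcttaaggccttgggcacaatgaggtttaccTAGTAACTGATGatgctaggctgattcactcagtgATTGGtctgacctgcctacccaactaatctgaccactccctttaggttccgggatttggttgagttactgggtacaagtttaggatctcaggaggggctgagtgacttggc
H2-DMa: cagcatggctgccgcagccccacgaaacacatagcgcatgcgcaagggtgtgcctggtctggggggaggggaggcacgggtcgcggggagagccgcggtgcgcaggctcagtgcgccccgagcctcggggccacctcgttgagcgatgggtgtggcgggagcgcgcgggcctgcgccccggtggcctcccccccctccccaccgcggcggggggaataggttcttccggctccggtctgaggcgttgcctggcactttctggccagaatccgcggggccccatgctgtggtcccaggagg

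In H2-Eb1 the looser X1 box lay at -93 to -82 and ATTGG at -59 to -55, counted from the start. In H2-DMb1 they lay at -96 to -85 and -61 to -57, in the same order and on the same strand. H2-Aa held ATTGG at -48 to -44 and matched neither X1 pattern as written. The first H2-DMa window held none of the 3 patterns. Its second annotated start, at chr17:34125268-34125567, held ATTGG at -198 to -194. Both H2-DMa windows lie toward the 5′ end of the annotated locus (34119541 to 34139101). Sequence farther into that locus was not examined, so a promoter there would have been missed. Promoter windows of H2-Ab1, Cd74 and Ciita were not examined, so nothing is said here of their motifs. Over all 32851 RefSeq windows of 300 bases, the looser X1 box occurred in 3.52%, the X1 core in 3.66% and ATTGG in 37.4%, and 1.25% held both the looser X1 box and ATTGG. The interferon-stimulated response element, GAAA repeated after 2 free bases (3.44% of windows) and the gamma-activated site TTCNNNGAA (8.30% of windows) were not matched in the windows of these 4 genes. A match is a description of letters and not evidence of binding. A window without a match may still hold a box whose letters differ from the patterns searched. The motifs overlap by construction where the X1 core is part of the looser pattern.

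The libraries held 35934210 to 55217119 counts. The microglial markers were abundant, with P2ry12 between 2330 and 3498 CPM (counts scaled by the library's total and its TMM factor) and Tmem119 between 1558 and 2212 CPM over the 7 libraries. The choroid plexus marker Ttr was higher, between 29100 and 44600 CPM, so the libraries were not of microglia alone. EYFP 3 stood apart, with 938.5 CPM of the X-linked Xist against 0.151 to 0.574 CPM in the other libraries, although the mice are described as male. It also held the Y-linked Ddx3y and Kdm5d, at 27.6 and 8.09 CPM, below the 121 to 169 and 37.9 to 48.4 CPM of the others. Atg7 itself was at 33.6 to 37.6 CPM over the EYFP libraries and 31.95 to 37.4 CPM over the ATG7 libraries. These are counts from cells enriched as microglia, so they do not check the overexpression in the cells that carry Cre.

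No class II gene passed the test between ATG7 and EYFP. All 7 had a log2 fold change above 0, where 49.2% of all genes did, and the folds ran from 1.11 to 1.52. Of these, 0 of 7 had an adjusted p below 0.05 (two-sided quasi-likelihood test of edgeR, p-values adjusted by Benjamini-Hochberg over all genes), where 0.755% of all genes tested did. At an unadjusted p under 0.05 the count was 6 of 7, all with ATG7 higher, against 6.27% of all genes with ATG7 higher (2300 of 19199 genes in either direction). That count of 6 was 2 without EYFP 2 or without ATG7 1, 3 without EYFP 3 and 1 without ATG7 3. With DESeq2 that unadjusted count was 6, and with limma-voom it was 5. At an adjusted p under 0.05, DESeq2 called 1 of the 7 genes (Cd74, adjusted p = 0.0377) and limma-voom called 0. The median log2 fold change was 0.41 over the 7 genes and -0.0037 over all genes tested, and 0.30 over the 7 genes without EYFP 3. ATG7 1 and ATG7 3 were the highest libraries for 6 of the genes, all but H2-DMb1. ATG7 2 lay within the EYFP range for 5, all but H2-DMa and H2-DMb1, where it lay just above it. In bulk libraries of this kind, fewer cells that express a gene and less RNA per cell cannot be told apart.

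**Figure D1:**
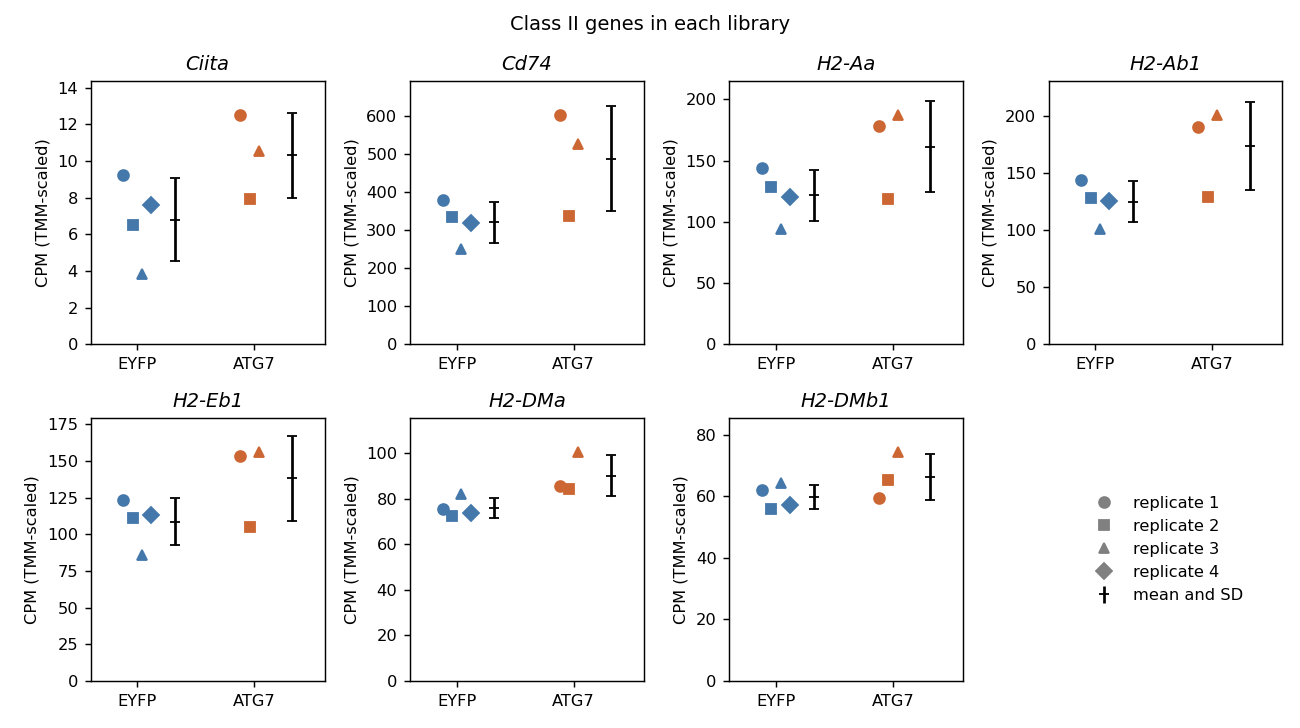
Level of each class II gene in CPM (linear axis from 0) in the 4 EYFP and 3 ATG7 libraries, with the marker shape giving the replicate number and the bar the group mean and SD. For Ciita, Cd74 and the class II chains, ATG7 1 and ATG7 3 lie above all EYFP libraries and ATG7 2 lies among them, while H2-DMa is the gene whose groups do not overlap.

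Ciita (ENSMUSG00000022504, GRCm38 chromosome 16, 10480059 to 10528418, plus strand), the transactivator, had the lowest level of the 7. Its values were 9.23, 6.50, 3.86 and 7.58 CPM in EYFP 1 to 4, against 12.5, 7.90 and 10.5 CPM in ATG7 1 to 3. EYFP 3 was the lowest library and ATG7 2 was below EYFP 1, so the groups overlapped. The means were 6.79 ± 2.26 CPM (SD) over the EYFP libraries (n = 4) and 10.3 ± 2.31 CPM (SD) over the ATG7 libraries (n = 3), and the log2 fold change was 0.60 with a standard error (SE) of 0.260 (edgeR adjusted p = 0.397). Its counts ran from 174 to 500 per library, the fewest among these genes. Without EYFP 3 the log2 fold change was 0.40, where it was 0.78 without EYFP 1. Dexi overlaps Ciita on the opposite strand, at a mean of 22.02 ± 1.12 CPM (SD) over the EYFP libraries (n = 4) and 22.95 ± 0.440 CPM (SD) over the ATG7 libraries (n = 3), and the authors' handling of strand is not given in the sources used here.

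Cd74, the invariant chain (ENSMUSG00000024610, chromosome 18), was the most abundant member. It stood at 379, 334, 250 and 317 CPM in EYFP 1 to 4 against 600.4, 335 and 526 CPM in ATG7 1 to 3. ATG7 1 was the highest library, and ATG7 2 lay beside EYFP 2. The group means were 320.2 ± 53.7 CPM (SD) over the EYFP libraries (n = 4) and 487 ± 137 CPM (SD) over the ATG7 libraries (n = 3), a fold of 1.52 with a 95% interval of 1.12 to 2.06 before any adjustment for the number of genes. The log2 fold change of 0.61 (SE 0.195) had an adjusted p of 0.251 in edgeR. Leaving out single libraries moved it between 0.43 (without ATG7 1) and 0.82 (without ATG7 2), and to 0.50 without EYFP 3, with edgeR adjusted p from 0.0752 to 0.569.

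H2-Ab1, the beta chain of the I-A molecule (ENSMUSG00000073421, chromosome 17, 34257689 to 34269419, plus strand), had 144, 129, 101 and 126 CPM in EYFP 1 to 4. In ATG7 1 to 3 it had 191, 129 and 201 CPM. ATG7 1 and ATG7 3 lay above every EYFP library, and ATG7 2 lay beside EYFP 2. The log2 fold change was 0.48 (SE 0.158, edgeR adjusted p = 0.263). Without ATG7 2 it was 0.65, without ATG7 3 it was 0.35 and without EYFP 3, the lowest library, it was 0.38.

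H2-Aa, the alpha chain that pairs with H2-Ab1 (ENSMUSG00000036594, chromosome 17, 34282744 to 34287823, minus strand), followed the same libraries. Its values were 144, 128, 94.2 and 120.1 CPM in EYFP 1 to 4 against 179, 119 and 187 CPM in ATG7 1 to 3. The log2 fold change was 0.41 (SE 0.175, edgeR adjusted p = 0.400), and 0.30 without EYFP 3. The H2-Aa to H2-Ab1 ratio of counts, which needs no scaling between libraries, stayed between 0.917 and 1.00 in all 7 libraries while H2-Ab1 itself ranged from 101 to 201 CPM.

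H2-Eb1, the beta chain of the I-E molecule (ENSMUSG00000060586, chromosome 17, 34305867 to 34316674, plus strand), had 124, 111, 86.1 and 113 CPM in EYFP 1 to 4. The ATG7 libraries had 154, 105 and 156 CPM. ATG7 2 lay below 3 of the 4 EYFP libraries. The log2 fold change was 0.35 (SE 0.154, edgeR adjusted p = 0.413), and 0.25 without EYFP 3. Its alpha chain gene, H2-Ea-ps, is annotated as a polymorphic pseudogene and was listed at 0 counts in every library, where 3 counts would be 0.0543 to 0.0835 CPM. As background, C57BL/6 mice carry an alpha chain gene that is not transcribed and do not make the I-E molecule.

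The ratio of H2-Eb1 to H2-Ab1 separated the groups but did not pass once adjusted. In counts it was 0.857, 0.865, 0.855 and 0.901 in EYFP 1 to 4, against 0.805, 0.810 and 0.779 in ATG7 1 to 3. The groups did not overlap, and the two-sided exact permutation p was 0.0286, the lowest that 35 splits allow, but over the 6 ratios compared the Benjamini-Hochberg adjusted value was 0.171. No other ratio reached an exact permutation p under 0.05. Cd74 to H2-Ab1 was 2.48 to 2.63 in 6 libraries and 3.15 in ATG7 1 (exact permutation p = 0.143, adjusted 0.214). These ratios were chosen after the values were seen.

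H2-DMa, the DM alpha chain (ENSMUSG00000037649, chromosome 17, 34119541 to 34139101, plus strand), was the only one of the 7 genes without overlap between groups. Its values were 75.5, 72.5, 82.3 and 73.9 CPM in EYFP 1 to 4 against 85.6, 84.4 and 100.6 CPM in ATG7 1 to 3. Here EYFP 3 was the highest EYFP library, not the lowest, and ATG7 2 lay close to ATG7 1. The means were 76.0 ± 4.31 CPM (SD) over the EYFP libraries (n = 4) and 90.2 ± 9.05 CPM (SD) over the ATG7 libraries (n = 3), with a log2 fold change of 0.25 (SE 0.0807, edgeR adjusted p = 0.241). Among all genes tested, 11.2% had groups that did not overlap in either direction and 6.33% did so with ATG7 higher, so 1 gene of 7 is near that background. Without ATG7 3 the log2 fold change was 0.15. The annotated H2-DMa locus overlaps Brd2 on the opposite strand, a gene at a mean of 266 ± 9.39 CPM (SD) over the EYFP libraries (n = 4) and 267 ± 15.0 CPM (SD) over the ATG7 libraries (n = 3), so reads of these genes may not be separable where they overlap.

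H2-DMb1, the DM beta chain (ENSMUSG00000079547, chromosome 17, 34153072 to 34160230, plus strand), differed least. It had 61.9, 55.9, 64.3 and 57.1 CPM in EYFP 1 to 4 against 59.6, 65.1 and 74.4 CPM in ATG7 1 to 3. ATG7 1, the highest or next-highest library for Ciita, Cd74 and the class II chains, was here in the middle of the EYFP range. The log2 fold change was 0.15 (SE 0.0867, edgeR adjusted p = 0.550), and its 95% interval ran from -0.04 to 0.34. Without ATG7 3 the log2 fold change was 0.06. H2-DMb2 is a near-identical copy and could share reads with it. The pair summed to 68.2 ± 4.41 CPM (SD) over the EYFP libraries (n = 4) and 75.7 ± 8.35 CPM (SD) over the ATG7 libraries (n = 3) (exact permutation p = 0.2, two-sided).

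Per kilobase of the annotated principal transcript, the mean levels in EYFP were 227 CPM for Cd74, 108 for H2-Aa, 103 for H2-Ab1, 65.0 for H2-Eb1, 45.9 for H2-DMa, 42.6 for H2-DMb1 and 1.13 for Ciita. Within single libraries the ratio of H2-Aa to H2-Ab1 on this scale ran from 0.985 to 1.07, on both sides of equal levels, so the order of these neighbours was not fixed. The ratio of H2-DMb1 to H2-DMa ran from 0.822 to 0.969, with H2-DMb1 the lower in all 7 libraries. In ATG7 the levels on the same scale were 346 for Cd74, 143 for H2-Aa and 143 for H2-Ab1. The order depends on the length used. Over the union of all annotated exons, H2-Aa in EYFP came to 32.0 CPM per kilobase, below H2-Eb1 at 55.8, H2-Ab1 at 48.6 and H2-DMb1 at 35.6. On that scale H2-DMa in EYFP came to 22.05, so the order of the DM pair was reversed.

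EYFP 3 was low for 5 of the genes and not for the DM pair. Between libraries, H2-Aa, H2-Ab1, H2-Eb1, Cd74 and Ciita were each lowest in EYFP 3, at 77.4%, 80.7%, 79.3%, 78.0% and 56.8% of their EYFP means. H2-DMa and H2-DMb1 were at 108% and 107% of theirs in the same library. In ATG7 1, Cd74 was at 188% and Ciita at 184% of the EYFP mean, H2-DMa at 113% and H2-DMb1 at 99.7%. ATG7 2 was between 96.4% and 105% for Cd74 and the 3 class II chains, and at 116% for Ciita.

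**Figure D2:**
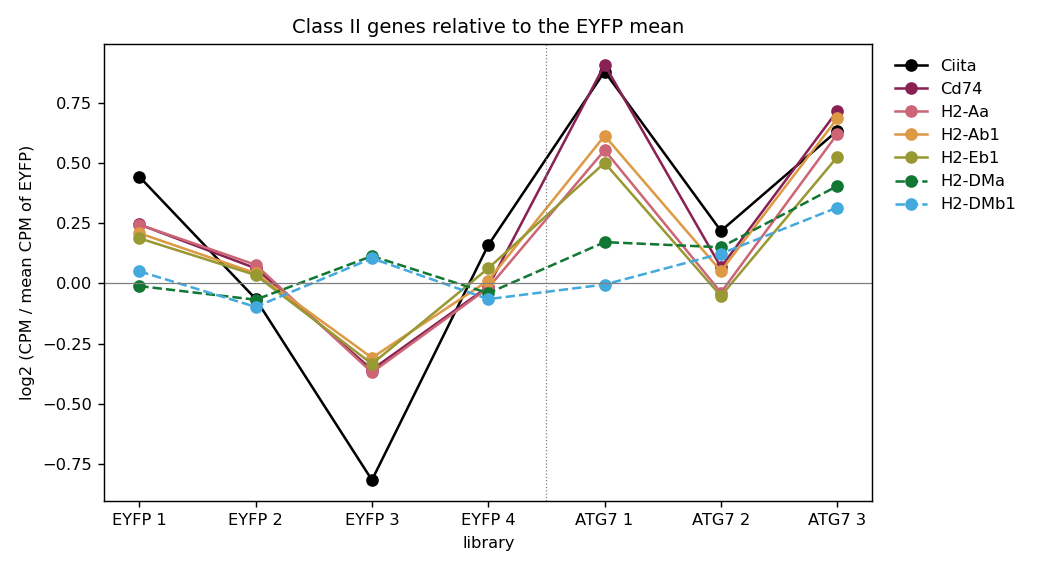
Each class II gene in each library as log2 of its CPM over the mean CPM of the 4 EYFP libraries, with lines that join the values of 1 gene and imply no order. Solid lines (Ciita, Cd74, H2-Aa, H2-Ab1, H2-Eb1) dip in EYFP 3 and peak in ATG7 1 and ATG7 3, and dashed lines (H2-DMa, H2-DMb1) do not dip in EYFP 3.

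Over the 7 libraries the log2 level of Ciita varied with that of H2-Ab1 (Pearson r = 0.91, exact permutation p = 0.00298, Benjamini-Hochberg adjusted 0.00694 over the 21 pairs of the 7 genes). Spearman's rho was 0.93 (exact permutation p = 0.00675, adjusted 0.0354). Leaving out ATG7 1 and ATG7 3, the libraries farthest from the median of H2-Ab1, gave r = 0.97 over 5 libraries. With each group's mean removed, r was 0.85, so the relation was also present within the groups. Without EYFP 3, r was 0.90 (exact permutation p = 0.0125). With Cd74, Ciita had r = 0.92 (exact permutation p = 0.00258, adjusted 0.00677). These values share library, scaling and counting, and the grouping of genes was noticed in the same data.

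Among H2-Aa, H2-Ab1, H2-Eb1 and Cd74, Pearson's r ran from 0.97 to 0.99 over the 6 pairs, and from 0.96 to 0.99 without EYFP 3. H2-DMa and H2-DMb1 had r = 0.89 with each other (exact permutation p = 0.00972, adjusted 0.0186, rho = 0.79). It was 0.52 when ATG7 3 and EYFP 2, farthest from the median of H2-DMa, were left out, so it rests largely on those libraries, and 0.90 without EYFP 3. H2-DMa against H2-Ab1 gave r = 0.62 (exact permutation p = 0.130, adjusted 0.227, rho = 0.68). That value depended on the libraries: it was -0.45 without ATG7 1 and ATG7 3, 0.81 without EYFP 3 (exact permutation p = 0.0278) and 0.25 without ATG7 3. H2-DMb1 against Ciita gave r = 0.15 (exact permutation p = 0.745), and 0.46 without EYFP 3. The difference between these correlations was not tested.

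**Figure D3:**
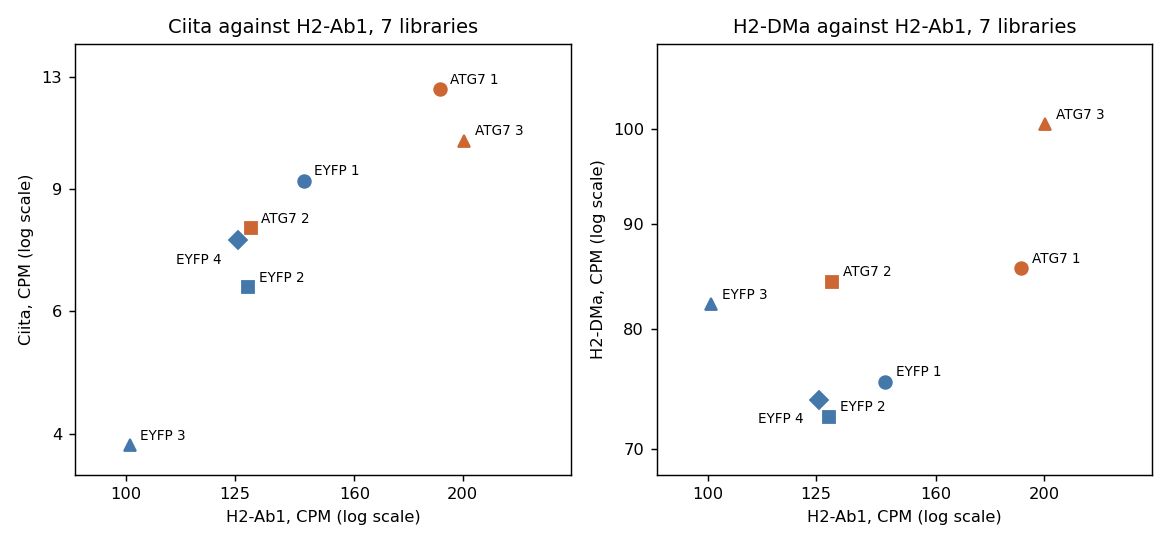
Ciita (left) and H2-DMa (right) against H2-Ab1, in CPM on log axes, with 1 point per library (blue EYFP, orange ATG7). Ciita follows H2-Ab1 from EYFP 3 at the low end to ATG7 1 and ATG7 3 at the high end, while EYFP 3 has the lowest H2-Ab1 and the highest H2-DMa of the EYFP libraries.

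The genes most like the group were looked for among 15051 genes with a mean of at least 1 CPM, by the Pearson correlation of log2 CPM over the 7 libraries with the mean of H2-Aa, H2-Ab1, H2-Eb1 and Cd74. Those 4 genes hold the first 4 ranks by construction. The next was Col3a1, a fibrillar collagen gene, at r = 0.97, with 1.596 to 2.49 CPM in EYFP and 2.24 to 3.23 CPM in ATG7. After it came Tnfsfm13 (r = 0.94), Rassf3 (0.94), Krr1 (0.93) and Ripor1 (0.93). None of these 5 passed the test, with edgeR adjusted p from 0.437 to 0.694. Ciita ranked 11, H2-DMa 1453 and H2-DMb1 3510.

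**Figure D4:**
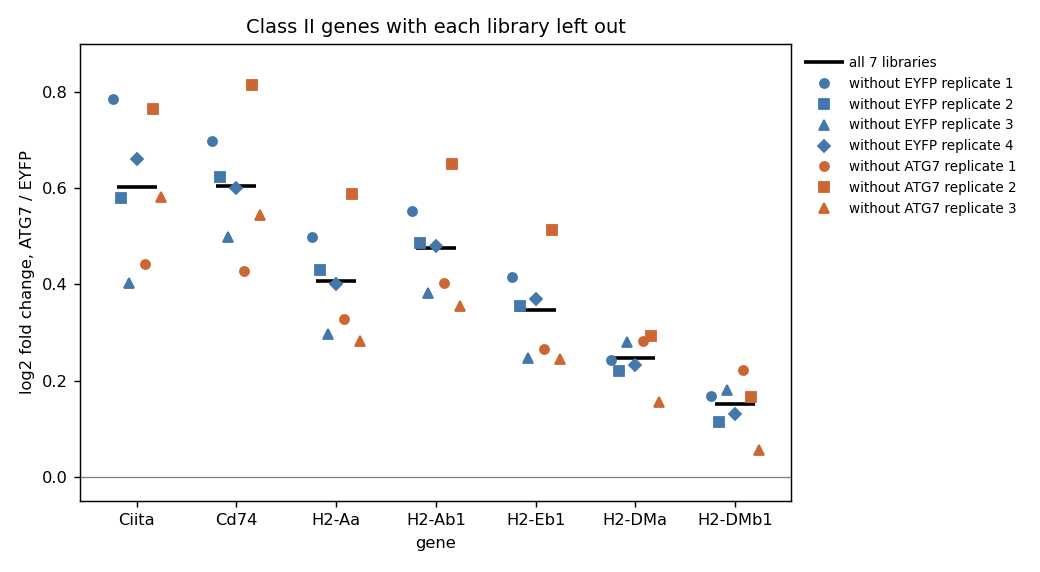
Log2 fold change (ATG7 over EYFP) of each class II gene with all 7 libraries (black bar) and with each library left out in turn (points, blue for an EYFP and orange for an ATG7 library). Every value is above 0. The values without ATG7 2 are the highest for Cd74, the 3 class II chains and H2-DMa. Those without ATG7 3 are the lowest for the 3 class II chains and both DM genes.

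The other class II genes were examined as a list. Of 5, 4 were tested, and 0 passed (edgeR, adjusted p under 0.05), where 0.755% of all genes tested did. H2-Oa and H2-Ob encode DO, the inhibitor of DM. H2-Oa had 11.2 to 11.9 CPM in EYFP and 14.4, 15.3 and 16.0 CPM in ATG7 1 to 3. Unlike in the class II chains, ATG7 2 lay with the other ATG7 libraries, well above the EYFP range. Its log2 fold change was 0.39 (SE 0.0896, edgeR adjusted p = 0.0847, DESeq2 adjusted p = 0.00385). H2-Ob was at 31.2 to 37.6 CPM in EYFP and 38.1 to 40.4 CPM in ATG7, also without overlap (log2 fold change 0.19, edgeR adjusted p = 0.348). H2-Eb2 was close to the limit of detection, with 3 to 31 counts per library (log2 fold change 1.46, SE 0.470, edgeR adjusted p = 0.231). Its groups did not overlap either. That made 3 of the 4 tested genes without overlap, all higher in ATG7, where 6.33% of all genes did so.

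Of the 7 factors that bind class II promoters, 0 passed (edgeR), where 0.755% of all genes tested did. Their median log2 fold change was 0.07. Rfx5, the DNA-binding subunit of RFX, was at a mean of 26.8 ± 1.79 CPM (SD) over the EYFP libraries (n = 4) and 28.8 ± 1.55 CPM (SD) over the ATG7 libraries (n = 3). Nfya, a subunit of NF-Y, had the smallest p of the list (log2 fold change 0.23, edgeR adjusted p = 0.406), followed by Creb1 (0.15, edgeR adjusted p = 0.501). For Rfxap, the value was -0.01 with a 95% interval from -0.24 to 0.23.

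Among 13 genes of antigen processing and class II turnover, 1 rose and 0 fell (edgeR, adjusted p under 0.05), where 0.688% of all genes rose. In 5 the groups did not overlap, all higher in ATG7, where 6.33% of all genes did so. Ifi30, the endosomal thiol reductase GILT that opens disulphide bonds of antigens, had 59.9, 57.3, 53.3 and 56.2 CPM in EYFP 1 to 4. It rose to 66.0, 80.2 and 84.3 CPM in ATG7 1 to 3, by 0.44 on the log2 scale (SE 0.0874, edgeR adjusted p = 0.0498). The call sits at the threshold: over 16 alternatives its adjusted p ran from 0.00128 to 0.475. ATG7 1, high for Cd74 and Ciita, was the lowest ATG7 library for Ifi30.

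Ctss, cathepsin S, which trims the invariant chain, had 3342, 3489, 3205 and 2867 CPM in EYFP 1 to 4 against 3886, 4453 and 4633 CPM in ATG7 1 to 3. The groups did not overlap, but the gene did not pass (log2 fold change 0.42, SE 0.106, edgeR adjusted p = 0.120). Ctsz, the lysosomal cathepsin Z, was at a mean of 718 ± 27.9 CPM (SD) over the EYFP libraries (n = 4) and 933 ± 72.6 CPM (SD) over the ATG7 libraries (n = 3), with an edgeR adjusted p of 0.0829. March1, a ubiquitin ligase that removes class II from the surface, was at a mean of 134 ± 17.5 CPM (SD) over the EYFP libraries (n = 4) and 138 ± 8.71 CPM (SD) over the ATG7 libraries (n = 3), and Sppl2a, which cleaves the invariant chain remnant, at 259 ± 10.5 and 268 ± 27.1 CPM (SD, n = 4 and n = 3). Neither passed (edgeR adjusted p = 0.930 and 0.883).

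Of 5 genes for ligands and partners of CD74, 0 passed (edgeR), where 0.755% of all genes tested did. At an unadjusted p under 0.05 there were 2, both higher in ATG7, where 6.27% of all genes were. The ligand Mif was at a mean of 79.3 ± 11.6 CPM (SD) over the EYFP libraries (n = 4) and 81.1 ± 6.25 CPM (SD) over the ATG7 libraries (n = 3). Cxcr4, a chemokine receptor that associates with CD74, had the smallest p, at a mean of 9.08 ± 0.854 CPM (SD) over the EYFP libraries (n = 4) and 11.7 ± 0.482 CPM (SD) over the ATG7 libraries (n = 3) (log2 fold change 0.36, edgeR adjusted p = 0.2002). Cd44, the signalling partner, came next (log2 fold change 0.36, edgeR adjusted p = 0.416).

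Of the 11 genes listed as inducers of Ciita, 10 were tested, 2 rose and 0 fell (edgeR, adjusted p under 0.05), where 0.688% of all genes rose. Irf1, an interferon-induced factor that acts on the Ciita promoter, rose from a mean of 46.7 ± 5.57 CPM (SD) over the EYFP libraries (n = 4) to 67.5 ± 8.39 CPM (SD) over the ATG7 libraries (n = 3), by 0.53 (SE 0.105, edgeR adjusted p = 0.0483), with adjusted p from 0.000991 to 0.371 over 16 alternatives. Ifng itself, the gene for interferon-gamma, was too low to be tested, with 0 to 6 counts per library. Its level was 0 to 0.0273 CPM over the EYFP libraries and 0.07495 to 0.109 CPM over the ATG7 libraries. The receptor genes Ifngr1 and Ifngr2 and the kinases Jak1 and Jak2 had log2 fold changes of 0.11, 0.22, 0.08 and 0.21, and none passed (edgeR adjusted p from 0.189 to 0.771). ATG7 2, within the EYFP range for the class II chains, was above every EYFP library for Irf1, at 62.6 CPM against 42.4 to 54.6 CPM.

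Over the 5 lists together, 3 of 39 tested genes passed, Ifi30 and Irf1 among them, all higher in ATG7, against 0.688% of all genes called higher, and 13 of 39 had groups that did not overlap, all higher in ATG7, against 6.33% of all genes. The median log2 fold change was 0.16. The lists were written with earlier results of these data known, interferon genes among them, and are not independent evidence of a direction. The count of 3 was 1, with neither Ifi30 nor Irf1 passing, without EYFP 2, EYFP 3, EYFP 4, ATG7 2 or ATG7 3, each left out alone.

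**Figure D5:**
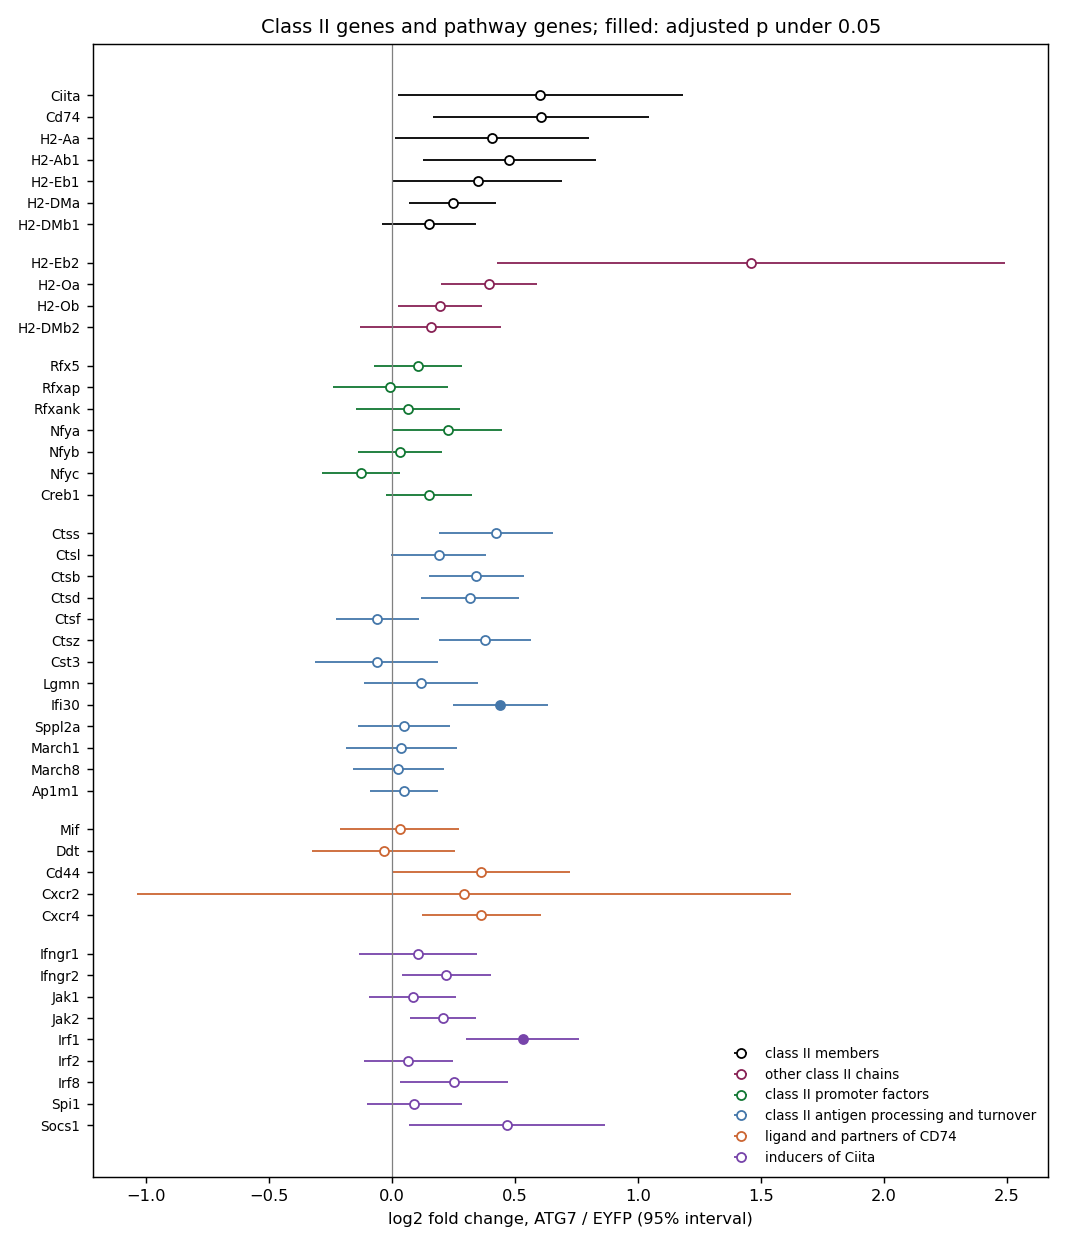
Log2 fold change (ATG7 over EYFP, linear axis in log2 units) with its unadjusted 95% interval for the 7 class II genes and for tested genes of the 5 pathway lists (1 passing gene is not shown), coloured by list, with filled points for an adjusted p under 0.05. The filled points are Ifi30 and Irf1, and all 7 class II genes are open.

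Other cells that carry class II could add to these counts, and their markers were summed in each library. The 11 dendritic cell markers summed to 65.5 to 71.5 CPM in EYFP and 73.6, 78.6 and 95.4 CPM in ATG7 1 to 3, and none was at 0. All 11 had a log2 fold change above 0 (49.2% of all genes), and 1 passed (0.688% of all genes were called higher). That gene, Ccr7, a receptor of migrating dendritic cells, rose from between 0.820 and 1.84 CPM to between 3.17 and 5.14 CPM (edgeR adjusted p = 0.0182). Ccl22 was at 0.798 to 2.55 CPM in EYFP and 3.92 to 6.95 CPM in ATG7, just short of passing (edgeR adjusted p = 0.05001). The defining gene Flt3 was at 2.97 to 4.71 and 3.80 to 5.14 CPM. The 9 border macrophage markers summed to 552 to 664 CPM in EYFP and 582 to 664 CPM in ATG7. None passed, where 0.755% of all genes tested did. For 8 B cell and plasma cell markers the sums were 235 to 268 and 208 to 261 CPM, nearly all of it Ighm. The defining B cell genes Ms4a1 and Pax5 stayed under 0.415 CPM in every library, with Ms4a1 at 0 in ATG7 1 and Pax5 at 0 in EYFP 3.

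The 7 monocyte and neutrophil markers summed to 53.7 to 83.7 CPM in EYFP and to 43.0, 54.8 and 146 CPM in ATG7 1 to 3. The 9 T and NK cell markers summed to 7.87 to 13.1 CPM and to 14.7, 15.9 and 27.8 CPM. In 7 of 9 the groups did not overlap, all higher in ATG7 (6.33% of all genes), and 0 passed (edgeR, 0.755% of all genes). Both sums were highest in ATG7 3, a library high for all 7 class II genes. In EYFP 3 the T and NK cell sum was the lowest of all libraries. The monocyte and neutrophil sum was there the highest of the EYFP libraries. In ATG7 3, S100a9 and S100a8 gave 55.2 and 32.2 CPM of that sum, and Ly6c2 and Plac8 gave 13.5 and 10.3 CPM. Ccr2 was at 17.4 to 23.4 CPM in EYFP and 17.7 to 23.7 CPM in ATG7. Cd4, the largest part of the T and NK cell sum, was at 6.075 to 8.26 CPM in EYFP and 7.62 to 9.12 CPM in ATG7. Its groups overlapped, with a log2 fold change of 0.24, where the median over the 9 T and NK cell markers was 1.56. The 6 endothelial and pericyte markers summed to 374 to 643 CPM in EYFP and to 693, 497 and 884 CPM in ATG7 1 to 3. Here ATG7 2 was the lowest ATG7 library, while ATG7 1 was the lowest for the monocyte and neutrophil sum and for the T and NK cell sum. The part of these cells in the class II levels was not tested.

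The 10 microglial markers summed to 17740 to 21640 CPM in EYFP and 17160 to 21370 CPM in ATG7. None passed, where 0.755% of all genes tested did. The 6 choroid plexus markers summed to 54450 to 71790 and 46100 to 60780 CPM, above the microglial sum in every library. The neuron, astrocyte and oligodendrocyte lists, of 6 genes each, summed to at most 41.9, 476 and 491 CPM, and the highest library of each was EYFP 1.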

How the data were processed

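RNA-seq counts of 7 libraries were used. The authors deposited raw counts per Ensembl gene; fastp 0.20.1, HISAT2 2.0.5 and featureCounts, with mm10 and GRCm38, are named per the submitters' processing notes, while annotation release, strand and handling of shared reads are not given in the sources used here. The counts of all 37 mitochondrial genes were 0. Symbols, positions and lengths came from GENCODE M21 (GRCm38), which matched 55141 identifiers. Groups and replicate numbers came from the titles, and each column was matched by its name.

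ATG7 was compared with EYFP in edgeR 4.0.16 (R 4.3.3) with the quasi-likelihood test, TMM factors, filterByExpr, robust fitting and no covariate. CPM are scaled by TMM factors. A prior count of 2 entered log2 values. SE is the absolute log2 fold change over the square root of F. Floors of 3 counts cover counting error only. The fit was tested on simulated data. Pairs of libraries of 1 group differed by more than sampling noise (chi-square per degree of freedom 21.0 to 45.4). Alternatives used other scalings, filters, DESeq2 1.42.0, limma-voom (limma 3.58.1), a replicate block and each library left out.

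Members and lists were chosen with earlier results of these data known. Named were the 7 members, passing pathway genes or the 2 of smallest p per list, and the 5 genes most like the class II chains and Cd74. Other genes were named after their values were seen. Single values of some listed genes are not reported here, though the list counts and sums include them.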

Additional observations from a re-analysis of the deposited data

How the results depend on the processing

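The class II genes kept a positive log2 fold change under all 16 alternatives, and their median stayed between 0.28 and 0.59. None passed except Cd74 with DESeq2, which called 1 member, 8 pathway genes and 585 genes in all. The count over all genes was 297 with no filter and 275 at an adjusted p under 0.1, with 5 pathway genes each time. Members at an unadjusted p under 0.05 numbered 2 with no filter and 3 with library size alone, against 6. The pathway count was 1 with DESeq2 size factors, library size alone and upper quartile scaling. With 1 library left out, the counts ranged from 28 (without ATG7 2) to 277 (without EYFP 1) over all genes and from 1 to 3 for pathway genes. The replicate block gave 0 genes in all, 0 members and 0 pathway genes. Deviations from the group means had correlations of -0.06, -0.18 and 0.07 between same-numbered libraries, against -0.15 to 0.22 between differently numbered ones. So few values cannot show whether same-numbered libraries share an animal, a litter or a day. The correlations and their alternatives were chosen after seeing the data. Ciita counts, at most 500 per library, limit its precision.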
